A study of Mus musculus with 10 samples.

Results

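The regions described here are 12591 peaks of the histone mark H3K27ac that were called inside protein-coding genes of mouse neural stem and progenitor cells after crotonate and not in control cells. They are called new intragenic peaks below. A peak of the crotonate H3K27ac list on chromosomes 1 to 19 was a member when it overlapped no peak of the control H3K27ac list, overlapped a protein-coding gene of the RefSeq annotation (GRCm38) and lay more than 1 kb from both annotated ends of every protein-coding gene. The members make up 12591 of the 59868 peaks in the crotonate H3K27ac list and of the 273422 peaks in all 8 lists. The members were thus chosen by the H3K27ac calls of both lists, so the gain of H3K27ac at these regions is a description and not a finding. The values examined are those the choice did not use, namely H3K9cr, H3K4me3 and H3K27me3 at the peaks, the host genes, and the position of the peaks within them.

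The cells were isolated from the forebrain of E13.5 mouse embryos and kept at early passage with EGF and FGF at 20 ng/ml each. The crotonate group received 10 mM crotonate and the control group water, both for 24 h. Crotonate is a short-chain fatty acid that cells can turn into crotonyl-CoA, the donor for lysine crotonylation. Chromatin was prepared without crosslinking, and each of the marks H3K4me3, H3K9cr (crotonylation), H3K27ac and H3K27me3 was immunoprecipitated in 1 library per treatment, so no value below has a replicate check and no test between treatments was possible.

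H3K27ac is an acetyl mark placed by the acetyltransferases p300 and CBP at active promoters and enhancers, and peaks inside genes but away from their starts are often enhancers. H3K9cr is a crotonyl mark at active promoters and enhancers, and p300 can place both acyl groups. H3K4me3 marks promoters, and H3K27me3 is the mark of Polycomb repression, which at many developmental genes sits beside H3K4me3. A peak from a bulk culture does not separate a mark carried by few cells from a weak mark in many.

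A few members touch a start of transcription that RefSeq annotates inside a gene. The sequences of 6 such internal start windows are shown because the members there differed in whether they touched H3K4me3. Each window runs from 250 bases before to 50 bases after the start, 5′ to 3′ on the gene's strand, from RefSeq on GRCm38.p6, and CG dinucleotides are in capitals. They belong to the 6 strongest members at internal starts of coding genes, leaving out Zfp976 and Gm3604, whose families hold near-identical copies. The members in Phf24, Mpp2 and Cd55 also touched H3K4me3 and H3K9cr peaks in both treatments, and those in Ahcyl2, Aatk and Sun3 touched no H3K4me3 peak in crotonate or control. The member in Ahcyl2 did touch H3K9cr in both treatments, with a fold enrichment of 4.78 in crotonate and 4.26 in control. The windows lie at chr4:42916993-42917292 on the plus strand (Phf24), chr11:102082435-102082734 on the minus strand (Mpp2), chr1:130462695-130462994 on the minus strand (Cd55), chr6:29853491-29853790 on the plus strand (Ahcyl2), chr11:120017105-120017404 on the minus strand (Aatk) and chr11:9039542-9039841 on the minus strand (Sun3).
Phf24: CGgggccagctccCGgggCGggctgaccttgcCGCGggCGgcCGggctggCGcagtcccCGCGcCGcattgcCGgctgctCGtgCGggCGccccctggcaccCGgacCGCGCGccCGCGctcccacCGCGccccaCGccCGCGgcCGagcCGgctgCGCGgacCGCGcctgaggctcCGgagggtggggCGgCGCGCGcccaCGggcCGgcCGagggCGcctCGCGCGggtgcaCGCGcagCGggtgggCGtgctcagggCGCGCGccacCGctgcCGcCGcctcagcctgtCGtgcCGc
Mpp2: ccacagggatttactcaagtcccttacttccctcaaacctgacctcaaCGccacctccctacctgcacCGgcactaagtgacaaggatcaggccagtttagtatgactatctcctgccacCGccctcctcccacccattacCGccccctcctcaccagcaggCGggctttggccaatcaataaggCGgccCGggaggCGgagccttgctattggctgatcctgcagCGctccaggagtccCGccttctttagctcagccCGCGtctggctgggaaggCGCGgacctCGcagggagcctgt
Cd55: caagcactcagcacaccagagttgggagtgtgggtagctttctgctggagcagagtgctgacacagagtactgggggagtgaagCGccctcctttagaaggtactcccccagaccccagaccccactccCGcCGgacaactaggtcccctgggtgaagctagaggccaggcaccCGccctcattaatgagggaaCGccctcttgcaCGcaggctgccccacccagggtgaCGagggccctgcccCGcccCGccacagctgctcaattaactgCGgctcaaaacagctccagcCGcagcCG
Ahcyl2: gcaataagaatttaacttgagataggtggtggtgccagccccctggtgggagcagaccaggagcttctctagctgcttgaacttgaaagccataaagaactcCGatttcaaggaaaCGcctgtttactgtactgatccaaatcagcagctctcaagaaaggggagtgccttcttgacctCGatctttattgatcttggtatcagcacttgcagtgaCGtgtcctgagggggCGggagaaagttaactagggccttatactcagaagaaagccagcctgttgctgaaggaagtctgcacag
Aatk: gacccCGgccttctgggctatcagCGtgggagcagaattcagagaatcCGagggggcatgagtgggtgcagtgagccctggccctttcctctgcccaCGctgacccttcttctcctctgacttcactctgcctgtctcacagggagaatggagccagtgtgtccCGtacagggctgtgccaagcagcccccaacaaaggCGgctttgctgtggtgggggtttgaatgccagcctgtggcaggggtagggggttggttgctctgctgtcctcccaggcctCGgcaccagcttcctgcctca
Sun3: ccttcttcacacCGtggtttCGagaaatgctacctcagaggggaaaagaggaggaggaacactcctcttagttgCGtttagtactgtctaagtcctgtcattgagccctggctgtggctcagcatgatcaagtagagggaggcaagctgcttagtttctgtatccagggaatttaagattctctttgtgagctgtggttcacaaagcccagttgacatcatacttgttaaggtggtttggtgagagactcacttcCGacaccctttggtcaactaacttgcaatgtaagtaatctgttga

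The window of Phf24, which codes for a PHD finger protein, held 56 CG dinucleotides. Those of Mpp2, a membrane-associated guanylate kinase, and Cd55, a complement regulator, held 15 and 12. The windows of Ahcyl2, Aatk and Sun3 held 5, 7 and 4. Those of Zfp976 and Gm3604, left out above, held 10 and 7, and their members touched H3K4me3 in both treatments. Among all 20084 windows of coding genes the median was 14, and 95.6% held at least 1 CG, which reads the same on both strands. In Phf24 a pair of narrow members flanked the window, at chr4:42917286-42917608 with a pileup of 17 and at chr4:42916726-42917057 with a pileup of 12. The H3K9cr peak they touched had a fold enrichment of 17.4 in crotonate and 24.1 in control, and the H3K4me3 peak 44.1 in crotonate and 43.9 in control.

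Members touched 66 internal windows of coding genes, in which the number of CG dinucleotides differed with H3K4me3, although the ranges overlapped. The 24 windows with H3K4me3 after crotonate held a median of 17.5 CG dinucleotides (6 to 56), and the 42 without it a median of 5 (0 to 21). For comparison, internal windows touched by a shared H3K27ac peak and no member held a median of 18 (n = 1262), and internal windows with no H3K27ac peak in either list a median of 4 (n = 1716). These starts account for a small share of the members. Only 93 of the 12591 members (0.739%) touched any internal start window, against 1284 of the 17845 shared intragenic peaks (7.20%). Shared intragenic peaks were wider (median 783 bp against 333 bp) and stronger, and these shares were not weighted for width or strength. Of the 60 members at internal starts of coding genes, 30 touched H3K9cr after crotonate (50.0%, 95% interval 36.8 to 63.2) and 20 touched H3K4me3 (33.3%, 21.7 to 46.7), against 5.23% and 1.06% of the 12498 members away from internal starts. Shared intragenic peaks at internal starts touched H3K9cr in 93.2% of cases. Intervals here and below are exact Clopper-Pearson intervals for counting error over peaks or genes, which treat neighbours as independent and say nothing of the spread between cultures.

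The libraries differed in ways that bear on every count. The median fold enrichment of the H3K27ac list was 4.62 in crotonate and 5.59 in control, and its median width 625 bp in crotonate and 881 bp in control. The H3K27ac lists held 59868 peaks in crotonate and 52922 in control. The depth of the libraries is unknown. The lowest local background implied by any H3K27ac peak, a stand-in for depth, was 0.861 times as high in crotonate as in control. The catalogue number of the H3K27ac antibody was the same in both groups, and the labels give its vendor for control only. Marker genes of the cell types that the culture could hold were checked for promoter marks: 9 of 10 neural stem and progenitor markers had H3K4me3 at an end in both treatments, against 0 of 6 microglia markers, 1 of 5 endothelial markers, 3 (crotonate) and 4 (control) of 6 pericyte and mesenchyme markers, 2 of 4 erythroid markers and 4 of 5 neuron markers. H3K27ac lay at an end of 9 (control) and 8 (crotonate) progenitor markers and 1 (control) and 2 (crotonate) endothelial markers. In both treatments it lay at 1 microglia, 1 pericyte and mesenchyme, 2 erythroid and 3 neuron markers. H3K27me3 in control lay at 4 progenitor, 1 microglia, 2 endothelial, 5 pericyte and mesenchyme, 2 erythroid and 4 neuron markers. How far depth, enrichment or cell make-up enters the results below was not tested.

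New H3K27ac peaks lay mostly inside genes. Of the 17913 gained peaks on chromosomes 1 to 19, which are 30.4% of the list there, 12591 were intragenic (70.3%, 95% interval 69.6 to 71.0). The share was 57.0% (56.2 to 57.9) among the 13092 lost control peaks and 43.6% (43.1 to 44.1) among the 40952 shared crotonate peaks. Within genes, 41.4% of the 30436 crotonate peaks were new and 31.2% of the 23890 control peaks were lost, which gives 1.69 new peaks for each lost one. Outside genes the ratio was 0.871, from 4153 new and 4766 lost peaks, and within 1 kb of gene ends it was 1.36, from 1169 new and 862 lost peaks. In the lists as deposited, new intragenic peaks outnumbered lost ones on all 19 chromosomes, from 1.21 times on chromosome 3 to 2.09 times on chromosome 5. Over all chromosomes the excess was smaller with the longer list cut to its strongest peaks, so that both lists had equal numbers. There were then 8932 new and 8479 lost intragenic peaks, a ratio of 1.05. Counts by chromosome were not repeated at equal numbers, and chromosomes of 1 library pair are not replicates. The number of members also depended on the settings: 19658 when 50% of both peaks had to overlap to be shared, 7980 after peaks within 3 kb were merged, and 796, in 705 genes, in the stronger 50% of the crotonate list.

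The members were narrow and weak. Their median width was 333 bp (quartiles 273 and 455, range 221 to 2493) and their median summit pileup 12 (9 to 45), and together they covered 4.99 Mb. The median fold enrichment over local background was 3.53 (2.12 to 9.24). Lost intragenic peaks had a median width of 349 bp, a pileup of 14 and a fold enrichment of 3.41. Shared intragenic peaks were wider and stronger, with a median width of 783 bp, a pileup of 19 and a fold enrichment of 4.98. When the crotonate list was cut into deciles of the authors' -log10 q-value, members made up 52.0% of the weakest decile, 35.6% of decile 4, 2.65% of decile 7 and 0.141% of decile 8, and none of the 2 strongest. At the edge of the choice, 300 members had a control H3K27ac peak at most 100 bp away (median fold 3.33), and 472 peaks counted as shared overlapped a control peak by at most 100 bp (3.53). Similarly 245 members lay 1 to 1.5 kb from a gene end, and 264 new peaks in genes lay 0.5 to 1 kb from one and were left out. The nearest control H3K27ac peak was a median of 7.11 kb away (quartiles 2.04 and 17.5).

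Few members carried H3K9cr. Of the 12591 members, 691 touched an H3K9cr peak of the crotonate list (5.49%, 5.10 to 5.90) and 280 one of the control list (2.22%, 1.97 to 2.50). The crotonate share was 15.4% when sharing of H3K27ac asked for 50% of both peaks, 12.2% in the stronger 50% of the crotonate H3K27ac list, 9.26% when H3K9cr within 1 kb counted and 1.25% with the stronger 50% of the H3K9cr list. Across all crotonate H3K27ac peaks on chromosomes 1 to 19 the share with crotonate H3K9cr was 45.3%. New peaks outside genes touched crotonate H3K9cr in 9.70% of cases and control H3K9cr in 6.79%, and lost intragenic peaks in 10.2% and 12%. Shared intragenic peaks did so in 47.9% and 51.7%.

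**Figure D1:**
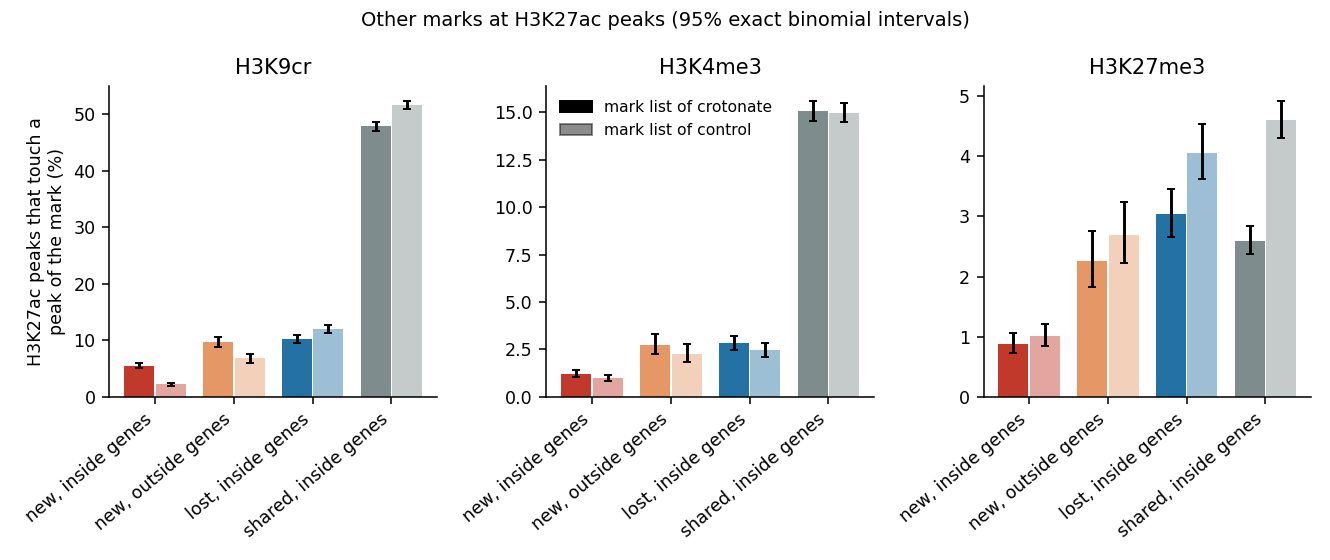
Share of H3K27ac peaks (%, vertical axis) that touch a peak of H3K9cr, H3K4me3 or H3K27me3 in the crotonate list (dark bars) and the control list (pale bars), for 12591 new intragenic, 4153 new intergenic, 7464 lost intragenic and 17845 shared intragenic peaks; whiskers are 95% exact binomial intervals and each panel has its own scale. New intragenic peaks have the lowest bar of the 4 classes in all panels.

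The lower share was also seen among peaks of like strength. Weighted to the strength of the members, decile by decile, shared intragenic peaks touched crotonate H3K9cr in 23.2% of cases and control H3K9cr in 26.3%, and new intergenic peaks in 8.94% and 6.19%. Members had the lower share in each of the 7 deciles with at least 20 peaks in both classes, against shared intragenic and against new intergenic peaks, in both H3K9cr lists. The share rose with strength in both classes. It was 3.92% for members against 18.2% for shared intragenic peaks in the weakest decile, and 15.1% against 53.4% in decile 7. With the stricter demand that the H3K27ac summit lie inside the H3K9cr peak, 4.51% of members met it in crotonate.

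**Figure D2:**
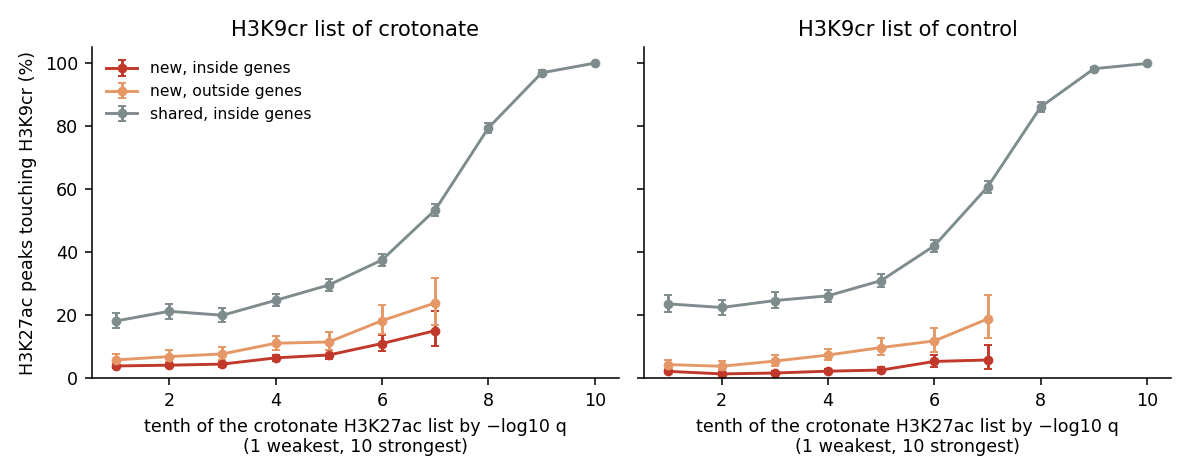
Share of H3K27ac peaks touching H3K9cr (%, vertical axis) by decile of the crotonate H3K27ac list (horizontal axis, 1 the weakest and 10 the strongest), for the H3K9cr list of crotonate (left) and of control (right); points are shares with 95% exact binomial intervals, shown where a class has at least 20 peaks. Members lie below shared intragenic and new intergenic peaks in all 7 deciles in which they can be compared.

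H3K9cr that was itself called only after crotonate reached 403 members (3.20%, 2.90 to 3.52), a share close to the 3.60% of all crotonate H3K27ac peaks. It was 6.78% of members in the stronger 50% of the crotonate H3K27ac list, 4.81% when H3K9cr within 1 kb counted, and 0.00794% with the stronger 50% of the H3K9cr list. With the lists as deposited it was 3.97% for new intergenic and 5.57% for shared intragenic peaks (5.26% at the strength of the members). Sorted by both lists, 448 members had H3K9cr in crotonate only (3.56%), 243 in both treatments (1.93%), 37 in control only (0.294%) and 11863 in neither (94.2%). The H3K9cr peaks gained at members were weak, with a median fold enrichment of 3.57. At the 243 members with H3K9cr in both treatments the median H3K9cr fold enrichment was 9.27 in crotonate and 9.71 in control. The medians of the whole H3K9cr lists were 9.42 in crotonate and 14.7 in control, so these folds are not on 1 scale. Seen from the other side, 15.5% of all crotonate H3K9cr peaks and 24.7% of the intragenic ones were gained. Of the 2846 gained intragenic H3K9cr peaks, 398 (14.0%) touched a member, 997 (35%) a shared H3K27ac peak and 1431 (50.3%) no H3K27ac peak. Of the 8697 shared intragenic H3K9cr peaks, 208 (2.39%) touched a member and 7338 (84.4%) a shared H3K27ac peak. The nearest crotonate H3K9cr peak lay a median of 14.2 kb from a member and 0.388 kb from a shared intragenic peak.

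Other marks were rarer still. Members touched H3K4me3 in 1.22% of cases in crotonate and 0.985% in control, against 15.1% and 15.0% of shared intragenic peaks (5.86% and 5.60% at the strength of the members). They touched H3K27me3 in 0.882% of cases in crotonate and 1.02% in control, against 2.59% and 4.61% of shared intragenic peaks. In all, 11842 members (94.1%, 93.6 to 94.5) touched no peak of the other 3 marks in either treatment. This share was 88.2% for new intergenic, 83.9% for lost intragenic and 42.9% for shared intragenic peaks, the last rising to 67.8% at the strength of the members. RefSeq long non-coding genes overlapped 4.66% of members and 7.57% of shared intragenic peaks. Whether the members lie in exons or introns was not analysed here.

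Of the 10 strongest members, 7 touched no peak of another mark, against 94.1% of all members. The member with the highest -log10 q lay in Rpl36, a ribosomal protein gene, at chr17:56612032-56612491 with a pileup of 33 and a fold enrichment of 9.24, and is uncertain because ribosomal protein genes have many processed copies. The next was a 2115 bp peak in Cd302, a C-type lectin receptor, at chr2:60267477-60269591 with a pileup of 31 and a fold enrichment of 8.70. A peak of the same height and 2493 bp lay in Cars, the cysteinyl-tRNA synthetase, at chr7:143587209-143589701. None of these touched a peak of another mark. The same held for the members in Clstn1, a neuronal transmembrane protein (fold 8.15), Tmem131 (7.61) and Ubap2 (7.61). It held as well for the member in Kctd8, an auxiliary subunit of GABA-B receptors (6.87), whose nearest control H3K27ac peak was 314 kb away. That distance was far shorter elsewhere: 0.191 kb in Tmem131, 0.901 kb in Rpl36, 5.79 kb in Ubap2, 9.39 kb in Cars, 13.6 kb in Clstn1 and 14.0 kb in Cd302. The other 3 of the 10 strongest did touch H3K9cr in both treatments, and all lay within 2 kb of their host's start.

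These 3 were in Hspb8, a small heat shock protein, Fbp2, a fructose bisphosphatase, and Rab20, a small GTPase. Their nearest control H3K27ac peak was 1.15 kb away in Hspb8, 10.4 kb in Fbp2 and 0.653 kb in Rab20. In Hspb8 the H3K9cr fold enrichment was 5.71 in crotonate and 3.60 in control. In Fbp2 it was 4.99 in crotonate and 4.03 in control, beside H3K4me3 at 14.5 and 7.45. In Rab20 it was 25.7 in crotonate and 8.25 in control, with H3K27me3 at 23.4 and 22.1. The Rab20 member, 1.14 kb from the nearest gene end, touched an H3K4me3 peak with a fold of 81.8 in crotonate and no H3K4me3 peak of the control list. Folds given for other marks belong to the peak that overlaps the member, and that peak can extend beyond it. The strongest members at gained H3K9cr were in Scg5, a chaperone of secretory granules (H3K9cr fold 4.04), Dbnl, an actin-binding adaptor (3.33), Gsdme, a gasdermin (4.31), Sardh, a mitochondrial sarcosine dehydrogenase (4.99), Fbxw8, an F-box protein (3.57), and Celf4, an RNA-binding protein of neurons (3.81).

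Among the named members that touched H3K27me3, the one in Tfap2a, a transcription factor of the neural crest, had the highest H3K27me3 fold enrichment. Its member at chr13:40730510-40731754 had a pileup of 19, and its nearest control H3K27ac peak was 128 kb away. The H3K27me3 peak that this member touched had a fold enrichment of 146 in crotonate and 216 in control, with H3K4me3 at 65.6 and 42.9 and H3K9cr at 17.5 and 17.3. In H2-Ab1, a class II histocompatibility gene, the fold enrichments were 37.3 and 79.4 for H3K27me3, 90.1 and 11.5 for H3K4me3, and 25.7 and 9.49 for H3K9cr, each crotonate before control. In Epha2, an ephrin receptor, H3K27me3 was 16.9 in crotonate and 47.4 in control, while H3K9cr was 80.1 and 88.3. It was 4.19 in crotonate and 4.61 in control in Mybpc2, a muscle myosin-binding protein, and 4.63 and 6.47 in Dlc1, a GTPase-activating protein. Pileups and fold enrichments are the authors' values from lists with different enrichment, so these pairs show where both lists have a peak and no direction is read from them. The nearest control H3K27ac peak was 0.337 kb from the member in Epha2, 0.979 kb in H2-Ab1, 2.88 kb in Mybpc2 and 72.3 kb in Dlc1.

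The hosts were long genes. The members fell in 4888 of 20661 protein-coding genes (23.7%), and 12476 members had 1 host, while 115 lay where 2 or more genes overlap. The most hosts of any member were 24 overlapping annotated genes, among them Gm37013. Host length had a median of 60.7 kb (quartiles 30.1 and 124), against 11.6 kb for the other genes and 17.5 kb for all. Hosts of lost intragenic peaks had a median of 81.6 kb and hosts of shared ones 58.6 kb, so genes with other H3K27ac peaks in the body were long as well. Counted over hosts, 2371 had 1 member (48.5%), 1828 had 2 to 4, 519 had 5 to 9 and 170 had 10 or more. These 170 genes held 2472 members (19.6%). Members of 1 host were spaced by a median of 9.89 kb (quartiles 3.58 and 24.4). Of all hosts, 63.4% also held a shared intragenic peak and 45.1% a lost one.

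Peaks per length of gene did not simply follow length. Across deciles of gene length, the share of hosts rose from 0.533% in decile 2 to 68.3% in decile 10. New peaks per Mb of gene were 4.71 in decile 3, 11.4 in decile 5, 18.5 in decile 8, 18.8 in decile 9 and 10.3 in the longest. Lost peaks per Mb were 5.36, 5.34, 6.96, 8.56 and 7.91 in the same deciles. The longest decile, from 109 kb upward, thus had about as many new peaks per Mb as genes of decile 5, while its density of lost peaks lay between those of deciles 8 and 9. Gene length here includes the outer 1 kb at each end, where no intragenic peak could lie. That part is larger in short genes, so the choice itself lowers their densities.

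The hosts also had active ends. In control, 84.6% of hosts had H3K4me3 within 1 kb of an annotated end, against 52.9% of other genes. H3K9cr was there in 86.5% of hosts and 54.8% of other genes, and H3K27ac in 83.9% and 51.1%. Hosts had the higher share in each of the 9 deciles of gene length that hold at least 10 hosts, for each of these 3 marks. H3K27me3 lay at an end of 25.1% of hosts and 21.7% of other genes in control, but within length deciles hosts had the higher share in 1 of 9. Among the longest genes it was 38.5% of hosts and 46.5% of other genes.

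Density was highest in genes with H3K4me3 and no H3K27me3 at their ends in control. These 8929 genes had 19.6 new peaks per Mb, counting a peak once in each gene it lies in, against 8.17 in the 3550 genes with both marks, 6.32 in the 1102 with H3K27me3 alone and 6.65 in the 7080 with neither. Lost peaks per Mb were 9.82, 6.73, 5.18 and 4.62 in the same states, and shared peaks 22.4, 15.6, 15.3 and 13.9. New peaks were thus 2.00 times as many as lost ones in genes with H3K4me3 alone, and 1.28 times in all other genes together. The difference in density between these genes and all others was 2.62-fold for new peaks (2.52 to 2.72). Restricted to genes of 50 kb or more that overlap no other coding gene, new peaks stood at 20.7 per Mb in genes with H3K4me3 alone and 7.58 in the others. With lists of equal numbers of H3K27ac peaks, genes with H3K4me3 alone held 13.8 new and 11.1 lost peaks per Mb, and the other genes 5.34 new and 6.66 lost, so that the direction of new against lost differed between the states. Density also varied with H3K27ac at the ends. Genes with both H3K4me3 and H3K27ac there had 16.3 new peaks per Mb, genes with H3K27ac and no H3K4me3 13.9, genes with H3K4me3 and no H3K27ac 3.64, and genes with neither 5.66. Without H3K27ac at an end, genes with H3K4me3 thus had fewer new peaks per Mb than genes without it.

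**Figure D3:**
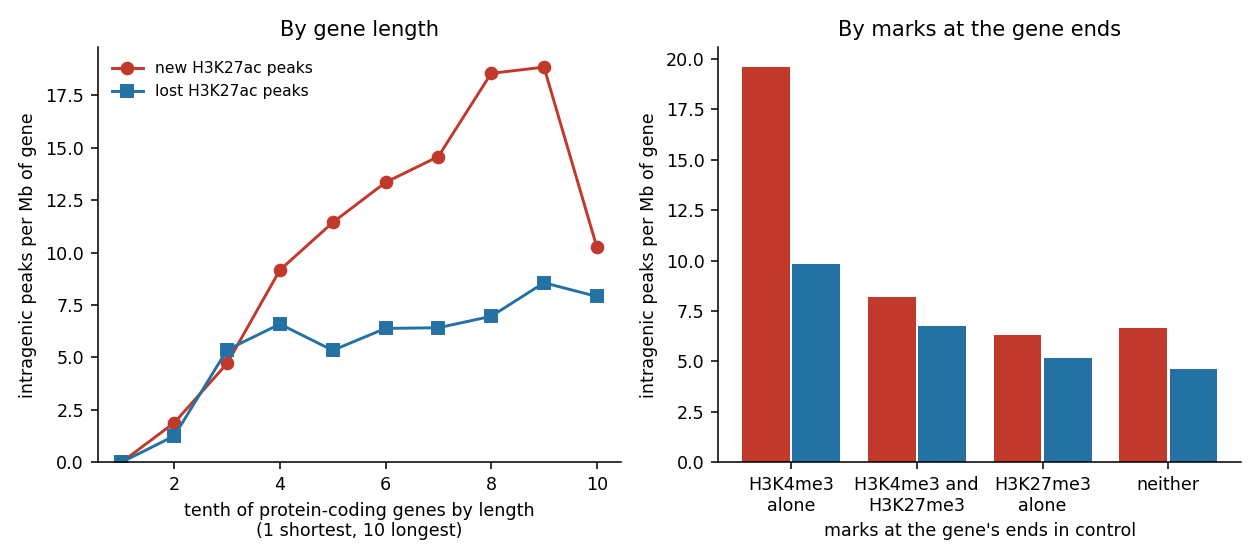
New (red) and lost (blue) intragenic H3K27ac peaks per Mb of gene (vertical axes), by decile of gene length (left, 1 the shortest) and by the marks within 1 kb of the gene's annotated ends in control (right). New peaks reach 18.8 per Mb in decile 9 and fall to 10.3 in the longest genes, and they are densest, at 19.6 per Mb, in genes with H3K4me3 alone. Gene length includes the outer 1 kb at each end, where no intragenic peak could lie, a larger part of short genes.

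Loss of H3K27me3 and gain of H3K9cr at gene ends were more frequent among hosts than among other genes. The other genes counted here were longer than 2 kb, the length below which no member could fit, a limit set after the data were seen. Of the 1225 hosts with H3K27me3 at an end in control, 296 had none there after crotonate (24.2%, 21.8 to 26.7), against 15.3% (14.1 to 16.6) of the other genes and 17.7% of all genes that carried it. H3K27me3 was gained by 1.72% of hosts and 3.55% of other genes that lacked it, with 3.07% over all. H3K9cr was gained at the ends of 64 of 659 hosts that lacked it in control (9.71%, 7.56 to 12.2), against 5.89% (5.27 to 6.57) of other genes and 6.32% of all. It was lost by 0.638% of hosts and 1.27% of other genes (1.05% of all). For H3K4me3 the intervals overlapped, with gains at 5.99% of hosts (4.40 to 7.94) and 4.59% of other genes (4.05 to 5.17, and 4.76% of all) and losses at 0.290% of hosts and 0.400% of other genes (0.362% of all). The overlap for gained H3K4me3 depended on that limit: with other genes of every length the share was 3.54% (3.13 to 3.98), below the interval of the hosts. For H3K27ac, the mark of the choice itself, 13.3% of hosts and 5.72% of other genes gained it (6.64% of all), and 2.44% and 4.16% lost it (3.56% of all). These shares are not matched for gene length beyond the limit of 2 kb.

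Members lay toward the 3′ end of their hosts. RefSeq start windows gave the strand of 3867 hosts. In these, 5979 of 10038 member summits lay past the midpoint of the gene (59.6%, 58.6 to 60.5), against 49.1% (47.8 to 50.4) of lost and 47.6% (46.8 to 48.4) of shared intragenic peaks. By decile of the gene from start to end, members made up 4.81%, 7.61%, 8.48%, 9.32%, 10.2%, 10.4%, 11.2%, 12.3%, 13.1% and 12.6%. Shared peaks began at 8.83% and ended at 7.60%, and lost peaks at 8.77% and 8.21%. The shift was present at every strength that could be compared: in 7 of 7 deciles of the crotonate list, members had more summits past the midpoint than shared peaks, with 58.8% against 47.2% in the weakest. It was 59.9% in hosts of 50 kb or more that overlap no other coding gene, 59.8% in hosts with H3K4me3 alone and 59.0% in the others. With equal numbers of H3K27ac peaks it was 59.8% for new and 49.0% for lost peaks.

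H3K9cr ran the other way along the gene. Of intragenic H3K9cr peaks in genes with strand, 44.4% of gained and 43.5% of shared ones lay past the midpoint. Members that touched crotonate H3K9cr lay mostly before the midpoint: 41.7% (37.6 to 46.0, n = 556) lay past the midpoint, against 60.6% (59.6 to 61.6, n = 9482) of members that touched none.

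**Figure D4:**
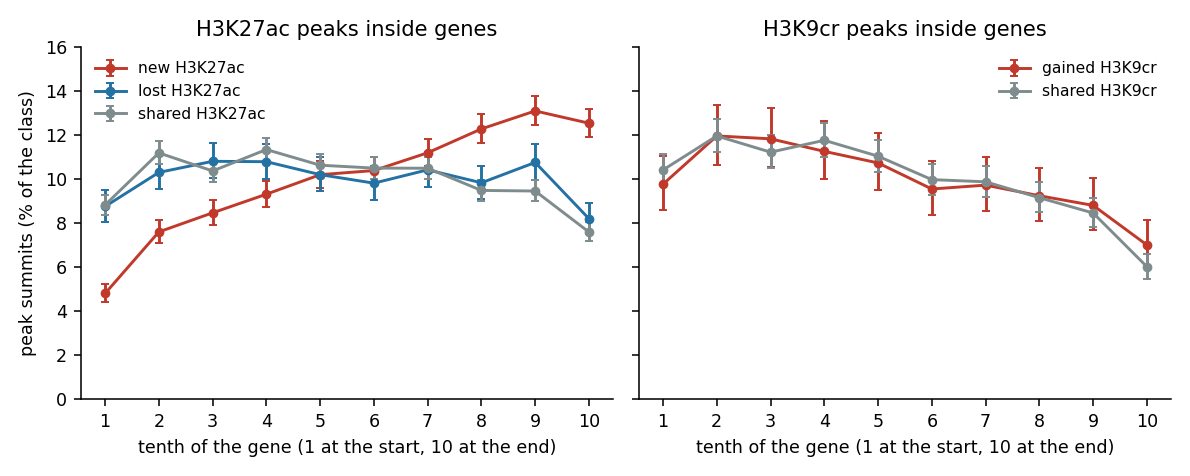
Share of peak summits (% of each class, vertical axis) by decile of the gene from its annotated start (1) to its end (10), for new, lost and shared intragenic H3K27ac peaks (left) and for gained and shared intragenic H3K9cr peaks (right); points carry 95% exact binomial intervals. New H3K27ac peaks rise from 4.81% in the first decile to 12.6% in the last, whereas the other classes do not.

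The 10 genes with most members were all longer than the median host. Npas3, a basic helix-loop-helix transcription factor of the developing brain at chr12:53248026-54072173, had 45 new, 43 lost and 79 shared intragenic H3K27ac peaks. Csmd2, a large transmembrane protein at chr4:127986505-128567660, had 37 new, 2 lost and 7 shared. Xylt1, the xylosyltransferase that starts glycosaminoglycan chains, had 37 new, 16 lost and 37 shared. Nav2, a microtubule-associated navigator protein, had 36, 13 and 39 in the same order. Zmiz1, a transcriptional coactivator, had 30, 12 and 29, and Msi2, an RNA-binding protein of neural progenitors, had 30, 27 and 75. New peaks were several times the lost ones in the next 4 genes. Ksr1, a scaffold of the Ras and MAP kinase cascade at chr11:79013440-79146533, had 30 new, 7 lost and 19 shared peaks. Dock1, a Rac exchange factor at chr7:134670687-135173647, had 30, 3 and 17. Trio, another exchange factor, had 28, 8 and 34, and the cadherin Cdh4 had 28, 7 and 15. Equal numbers of H3K27ac peaks left 29 new and 2 lost peaks in Csmd2, 30 and 16 in Nav2, 26 and 8 in Ksr1, 23 and 10 in Trio, 22 and 15 in Zmiz1, 18 and 8 in Cdh4 and 13 and 4 in Dock1, but 32 and 50 in Npas3, 23 and 30 in Msi2 and 22 and 20 in Xylt1.

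**Figure D5:**
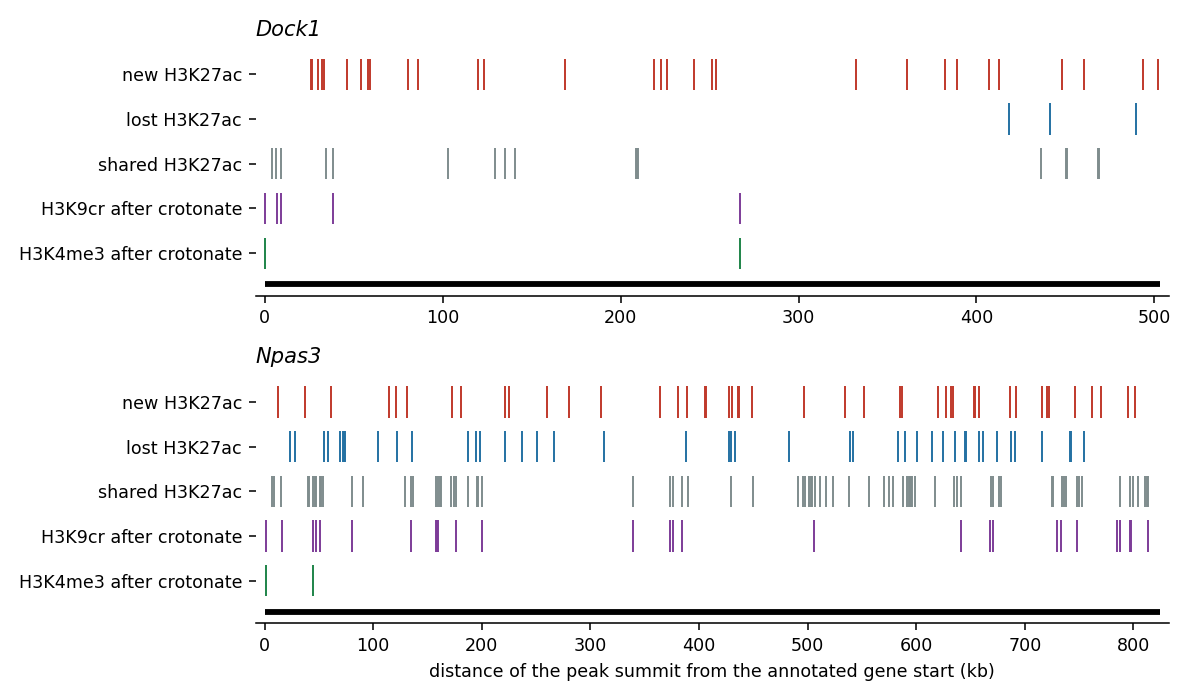
Peak summits along Dock1 (503 kb) and Npas3 (824 kb), as distance from the annotated start in kb (horizontal axis); each tick is 1 peak, in rows for new, lost and shared intragenic H3K27ac and for H3K9cr and H3K4me3 after crotonate, and the black bar is the gene. Dock1 has 30 new and 3 lost peaks, Npas3 has 45 and 43, and none of the new peaks in either gene touches H3K9cr.

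Among genes with at least 4 members, the densest was Ppp5c, a serine/threonine phosphatase, with 6 new, 0 lost and 3 shared peaks or 25.8 new peaks per 100 kb. Eps15l1, an endocytic adaptor at chr8:72340990-72421576, had 19 new, 0 lost and 1 shared (23.6 per 100 kb). Kcnc1, a voltage-gated potassium channel, had 10, 0 and 4 (23.5), Usp10, a deubiquitinase, 11, 3 and 2 (23.3), and Ap1m1, a clathrin adaptor subunit, 4, 0 and 0 (23.0). Ksr1 followed at 22.5. Lists of equal numbers left 13 new and 0 lost peaks in Eps15l1, 7 and 0 in Kcnc1, 4 and 0 in Ppp5c, 4 and 3 in Usp10 and 1 and 0 in Ap1m1. All 6 had H3K4me3 and no H3K27me3 at their ends in control.

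Gene groups differed in whether new or lost peaks prevailed. Among all genes 23.7% were hosts, and in the longest length decile 68.3%. The genes named in each group are those with most new peaks. In genes of acyl-CoA metabolism, which make and use the donors of histone acylation, 22 of 55 were hosts, with 59 new and 18 lost peaks, and 17 genes had more new than lost against 4 with more lost. The ratio in this list remained above 1 with equal numbers of H3K27ac peaks (42 new, 20 lost). Over all genes the background was 12.7 new and 7.57 lost peaks per Mb, and the list had 20.8 and 6.34. Of its 55 genes, 43 had H3K4me3 alone in control, a state with 19.6 new and 9.82 lost peaks per Mb over all genes. Acsbg1, an acyl-CoA synthetase of brain, had 10 new, 1 lost and 2 shared peaks. Acly, which makes cytosolic acetyl-CoA from citrate, had 6 new peaks and no other intragenic H3K27ac peak. Acaca, the acetyl-CoA carboxylase, had 7, 1 and 7, and Acsl6, an acyl-CoA synthetase for long chains, 5, 2 and 4.

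Chromatin regulators and acylation machinery had 37 hosts of 61, with 141 new and 85 lost peaks (24.0 and 14.5 per Mb), but 93 and 90 with equal numbers of H3K27ac peaks. Smarca4, the ATPase of the BAF remodeller, had 14 new, 0 lost and 2 shared peaks. Chd2, a chromodomain remodeller, had 12, 4 and 7, Hdac4, a class IIa deacetylase, 18, 14 and 13, and Chd7, another chromodomain remodeller, 10, 13 and 19. Equal numbers left 10 new and 16 lost peaks in Hdac4, which turns its direction. In the stress, inflammatory and interferon list, with a median length of 6.75 kb, 8 of 54 genes were hosts. They had 27 new and 11 lost peaks (33.8 and 13.8 per Mb over the list), or 21 and 12 with equal numbers. Its named hosts were Nfkb1 with 8 new and 2 lost peaks, Txnrd1, a thioredoxin reductase, with 5 and 0, Stat3 with 5 and 5, and Nfe2l2, the regulator of antioxidant genes, with 4 and 3.

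In regulators of neural stem and progenitor cells lost peaks outnumbered new ones. Of 60 genes, 29 were hosts (48.3%, median length 40.5 kb), with 176 new and 255 lost peaks (20.6 and 29.8 per Mb). Both densities were above those over all genes (12.7 and 7.57). Npas3 held 45 of these new and 43 of these lost peaks, and Msi2 held 30 and 27. By gene, 13 had more new than lost peaks against 19 with more lost. With equal numbers of H3K27ac peaks the list had 131 new and 284 lost peaks. Besides Npas3 and Msi2, Egfr, the receptor of the growth factor in the medium, had 14 new, 13 lost and 19 shared peaks, and Zfhx3, a zinc finger homeobox factor, had 7, 5 and 21. Equal numbers turned all 4 of these genes to more lost than new peaks, with 11 and 14 in Egfr and 4 and 6 in Zfhx3. The astrocyte and oligodendrocyte list had 20 hosts of 44 (45.5%, median length 20.3 kb). It had 76 new and 81 lost peaks (20.6 and 22.0 per Mb), or 49 and 87 with equal numbers. In it Ptprz1, a receptor phosphatase of radial glia, had 15, 7 and 10, Tnc, a matrix protein, 9, 6 and 17, Sox5 12, 10 and 20, and Tcf7l2, an effector of Wnt signalling, 9, 4 and 16. Sox5 and Tnc turned with equal numbers, to 7 new and 10 lost and to 6 and 7. All these lists describe counts, and their differences from the background were not tested.

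Synaptic, adhesion and channel genes had few new peaks per length, and their share of hosts was below that of the longest decile of genes. Synaptic and cell adhesion genes had 36 hosts of 55 (65.5%) with 201 new and 195 lost peaks, or 4.63 and 4.49 per Mb in genes with a median length of 740 kb. Ion channels and neurotransmitter receptors had 31 hosts of 55 (56.4%, median length 378 kb) with 102 and 115 peaks (4.54 and 5.12 per Mb). In them Kcnd3, a potassium channel, had 10 new and 13 lost, Grm5, a glutamate receptor, 10 and 2, Cacna1c, a calcium channel, 8 and 10, and Grin2a, a subunit of NMDA receptors, 7 and 4. Axon guidance genes had 36 hosts of 50 (72.0%, median length 183 kb) with 8.58 new and 7.08 lost peaks per Mb, among them Ntn1, the ligand netrin, with 11 new and 1 lost, Srgap2 with 9 and 6, and Sema5b, a semaphorin, with 6 and 6. Neuronal differentiation genes had 22 hosts of 45 (48.9%, median length 72.9 kb) with 13.8 new and 9.90 lost peaks per Mb. Among them were Cux1, a homeobox factor, with 12 and 4, Nav1 with 14 and 5, and Celf2, an RNA-binding protein, with 8 and 14. Counted by gene, 15 adhesion genes had more new than lost peaks and 30 had more lost. The counts were 14 and 24 for channels, 18 and 23 for axon guidance, and 13 and 9 for differentiation. Csmd2 and Cdh4 held 37 and 28 of the 201 new adhesion peaks. With equal numbers of H3K27ac peaks, each of these 4 lists had more lost than new peaks (145 new and 210 lost for adhesion, 74 and 122 for channels, 75 and 111 for axon guidance, 82 and 92 for differentiation). Grin2a and Srgap2 turned as well, to 3 new and 5 lost and to 5 and 7.

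Signalling genes of the Fgf, Egf, Wnt, Bmp and Tgfb pathways had 31 hosts of 59 (52.5%, median length 64.6 kb). They had 118 new and 82 lost peaks, and 88 of each with equal numbers of H3K27ac peaks. Spred2, an inhibitor of the Ras and MAP kinase cascade, had 13 new, 0 lost and 7 shared peaks, Bmp7, a secreted ligand, 10, 0 and 2, and Tgfbr2, a receptor, 9, 4 and 7. Extracellular matrix and cytoskeleton genes, with a median length of 131 kb, had 45 hosts of 58 (77.6%). They held 196 new and 149 lost peaks, or 145 and 164 with equal numbers. Among them Macf1 had 13 new and 6 lost, Sptbn1, a spectrin, 10 and 9 (8 and 9 with equal numbers), and Dst 10 and 6. Cell cycle and replication genes, with a median length of 15.7 kb, had 14 hosts of 60, with 29 new and 21 lost peaks, or 24 of each with equal numbers. Ribosomal protein genes, all 60 with H3K4me3 at an end, had 1 host of 60, the uncertain Rpl36. Their median length was 3.20 kb, and 0.533% of all genes in length decile 2 (1.71 to 4.39 kb) were hosts. Markers of other cell types were counted as well. Hosts were 0 of 6 microglia markers, 0 of 4 erythroid markers (median length 2.36 kb) and 1 of 5 endothelial markers (Pecam1, 2 members). So were 1 of 6 pericyte and mesenchyme markers (Pdgfrb, 1 member) and 2 of 5 neuron markers (Map2 and Rbfox3, 2 members each). Of 10 progenitor markers, with a median length of 4.79 kb, Pax6 held 2 members and Msi1 held 1. Among all genes 23.7% were hosts, and sets of 4 to 10 genes are too small to tell whether their share differs.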

How the data were processed

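Peak lists of 8 native ChIP-seq libraries were used, 1 per mark and treatment. The labels name 10 libraries, and no list of the 2 inputs was used here. The build GRCm38 and the tools MACS2 2.2.7.1 and Bowtie2 2.4.1 are listed, without their roles, in the submitters' processing notes. Depth, and the settings of the peak caller, are unknown. The deposited pileup is a coverage signal at the summit, and the deposited fold enrichment is a ratio to local background, per the file headers. Each peak also has a deposited -log10 q-value, with lists reaching q-values up to 0.05, and a -log10 p-value. These values rank and describe peaks within a list; where those of both lists stand side by side, no direction is read from them.

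Peaks sharing at least 1 bp were counted as overlapping. Genes came from RefSeq (GRCm38.p6), strand and start windows from its promoter table. H3K27ac deciles follow -log10 q of the crotonate list. Shares carry exact 95% intervals, which cover counting error only. Overlap functions were tested on simulated data (Python 3.11.15, numpy 2.4.6, pandas 2.3.3, scipy 1.17.1). Members, the 19 gene lists and comparisons were chosen with earlier results of these data known. Named genes were the 10 with most members, the 6 densest of those with at least 4 members and up to 4 per list. One gene that this rule names is not reported here. Named peaks were the 10 strongest members and, by strength, up to 6 at gained H3K9cr, at H3K9cr in both treatments, at H3K4me3 and at H3K27me3. Alternatives changed the overlap, the list lengths, merging, and the distance to gene ends.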

Additional observations from a re-analysis of the deposited data

How the results depend on the processing

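Each of 18 results was recomputed under alternatives, 87 values in all. Of these, 36 stayed within the counting interval of the reported value, or within 1.5 times a count, and 51 moved further. A turn of direction was defined only for the density ratio, the new-to-lost ratio and the share past the gene midpoint, and 0 of their values turned. The other results could only stay or move. Counts within gene groups did turn: with equal numbers of H3K27ac peaks, 4 of 19 gene lists and 11 of 63 named genes changed between more new and more lost peaks. The new-to-lost ratio was not recomputed for the stronger 50% of the crotonate list, which shortens 1 list only and leaves 796 new and 13952 lost peaks. The results on the density ratio (genes with H3K4me3 alone over other genes), the new-to-lost ratio, the gene midpoint and the summit setting were added after seeing the data. Counting peaks as shared only with 50% of both overlapping gave 19658 members, 64.7% of gained peaks intragenic, a median host length of 56.8 kb, 15.4% of members with crotonate H3K9cr, 4.05% with gained H3K9cr, 1.49 new per lost peak, a density ratio of 2.30 and 55.5% past the midpoint. Counting peaks within 1 kb as shared gave a median host length of 63.5 kb, 4.70% of members with crotonate H3K9cr, 2.09 new per lost peak and 61.4% past the midpoint. The stronger 50% of the crotonate list against the full control list gave 796 members, 57.9% of gained peaks intragenic, 705 hosts, a median host length of 91.0 kb, 12.2% of members with crotonate H3K9cr, 6.78% with gained H3K9cr, a density ratio of 2.03 and 57.6% past the midpoint. Equal numbers of H3K27ac peaks gave 69.2% of gained peaks intragenic, a median host length of 64.9 kb, 6.14% of members with crotonate H3K9cr, 3.68% with gained H3K9cr and 1.05 new per lost peak. Merging H3K27ac peaks within 3 kb gave 7980 members, 67.1% of gained peaks intragenic, a median host length of 68.2 kb, 3.60% with gained H3K9cr, 2.17 new per lost peak, a density ratio of 2.43 and 60.7% past the midpoint. A limit of 500 bp from gene ends gave 71.8% of gained peaks intragenic. A limit of 5 kb gave 59.9% of gained peaks intragenic, a median host length of 73.5 kb, 4.32% of members with crotonate H3K9cr, 2.88% with gained H3K9cr, a density ratio of 2.52 and 57.5% past the midpoint. Asking for 50% of the peak to be covered by H3K9cr gave 4.34% of members with crotonate H3K9cr and 2.22% with gained H3K9cr. H3K9cr within 1 kb gave 9.26% of members with crotonate H3K9cr and 4.81% with gained H3K9cr. The stronger 50% of the H3K9cr list gave 1.25% of members with crotonate H3K9cr and 0.00794% with gained H3K9cr. Asking for the summit inside H3K9cr gave 4.51% of members with crotonate H3K9cr and 2.41% with gained H3K9cr. Genes of 50 kb or more without overlap gave a density ratio of 2.73. Counting other genes of every length at gene ends, in place of those longer than 2 kb (a limit set after seeing the data), gave gains of H3K4me3 at 3.54%, of H3K9cr at 4.56% and of H3K27ac at 4.51% of other genes, and the intervals of hosts and other genes for gained H3K4me3 then no longer overlapped. H3K27me3 loss at other genes was 15.0%. The cause of these shifts was not tested, beyond the fewer peaks that a stricter list leaves. In each of the 3 settings that shorten or merge the H3K27ac lists, members touched crotonate H3K9cr less often than shared intragenic peaks: 6.14% against 50.2% with equal numbers, 12.2% against 66.0% with the stronger 50%, and 5.43% against 52.6% after merging. No paired analysis was possible because each mark and treatment has 1 library and the results come from no test. Depth is unknown. Members make up 52.0% of the weakest decile of the crotonate list, and control signal just below the calling threshold is counted as no peak.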
